A study of Mus musculus with 16 samples.

Results

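Interferon-stimulated genes are the transcripts that a cell raises when interferon binds its receptor, and 39 of them were followed here in mouse bone marrow. They were taken by symbol from a list, drawn up with earlier results of these data known, out of 57132 genes in the count table. All 39 were found, all had a summed raw count of at least 946 over the 16 libraries, and all 39 passed the filter on low counts, so none was left out. The marrow came from wild-type mice (WT, genotype label CB57BL/6) and from Nrf2-/- knockout mice (KO) of the same background. NRF2, encoded by Nfe2l2, is the transcription factor that drives antioxidant genes.

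Each genotype had 4 treatments with 2 libraries each, which gives 8 groups. The treatments were PBS as control, BMX-001 (a manganese porphyrin with redox activity), 5-fluorouracil (5-FU, a chemotherapy drug that blocks thymidylate synthase), and BMX-001 with 5-FU. BMX-001 was given at 0.5 mg/kg, starting 24 h before 5-FU and then at intervals of 3 days. The dose of 5-FU was 20 mg/kg, repeated on day 7, and the animals were killed for marrow on day 10. WT mice were males aged 8 to 10 weeks. Neither age nor sex is given for the KO animals, which came from a Nrf2+/- cross, so genotype cannot be told apart from age, sex or colony. The knockout allele was inherited and not restricted to a cell type, and RNA came from unsorted marrow. The labels call the libraries duplicates without saying whether they are separate animals, so p-values reflect only how much these duplicates differ, which could be technical variation alone.

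Total counts ran from 27305707 to 39909188 per library. The knocked-out gene matched the labels, with Nfe2l2 at 102 to 122 normalised CPM (counts scaled to a common library total) in the 8 WT libraries and 6.48 to 16.7 CPM in the 8 KO libraries. Marrow markers were present in every library, the summed maturing neutrophil markers at 23800 to 36200 CPM and the summed erythroid markers at 45100 to 85200 CPM. KO BMX-001 replicate 1 stood apart. Its summed granulocyte precursor markers were at 634 CPM against 2060 CPM or more elsewhere, so results are given with all 16 libraries and again with the other 15.

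Type I interferons bind the receptor pair IFNAR1 and IFNAR2, and the kinases JAK1 and TYK2 then phosphorylate transcription factors of the STAT family, among them STAT2. With IRF9 these form the complex ISGF3, which binds a short element in the promoters of interferon-stimulated genes. The products cut or trap viral RNA, sense nucleic acids, attach the ubiquitin-like protein ISG15 to other proteins, or feed back on the pathway, as IRF7 (amplifying) and USP18 (damping) do. Many of these genes also have a resting level in marrow, where blood cells form.

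The element is visible in the promoters of some members. Promoter sequence from RefSeq (build GRCm38.p6, 250 bases before to 50 after each start) was matched for 29 of the 39 members. The core GAAANNGAAA, searched on both strands with overlapping matches counted, stood in 14 of these 29 genes (48.3%), against 1079 of 27025 genes in the table (3.99%). Counted by promoter, 15 of 35 member promoters (42.9%) held it against 3.44% of 32851 promoters of the same length. A match is a description of letters and not a binding site shown in these data. The 4 promoters below belong to the members with the smallest p after 5-FU in KO marrow, with matches in capitals. A match on the strand opposite to the one printed reads TTTCNNTTTC.
Rsad2, chr12:26456403-26456702, minus strand, match beginning 120 bases before the start: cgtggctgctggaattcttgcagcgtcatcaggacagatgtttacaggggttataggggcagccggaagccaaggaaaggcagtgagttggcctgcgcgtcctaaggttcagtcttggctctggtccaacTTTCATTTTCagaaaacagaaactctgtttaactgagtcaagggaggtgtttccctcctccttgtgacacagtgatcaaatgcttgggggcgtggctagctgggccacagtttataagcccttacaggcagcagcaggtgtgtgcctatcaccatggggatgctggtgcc
Isg15, chr4:156200769-156201068, minus strand, 3 overlapping matches beginning 78, 72 and 66 bases before the start: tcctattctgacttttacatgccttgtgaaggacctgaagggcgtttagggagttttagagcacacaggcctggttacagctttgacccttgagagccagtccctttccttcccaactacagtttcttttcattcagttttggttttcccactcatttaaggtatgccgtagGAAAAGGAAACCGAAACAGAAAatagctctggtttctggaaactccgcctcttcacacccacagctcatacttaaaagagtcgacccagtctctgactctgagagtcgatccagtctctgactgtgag
Ifit1, chr19:34640639-34640938, plus strand, matches beginning 104 and 85 bases before the start: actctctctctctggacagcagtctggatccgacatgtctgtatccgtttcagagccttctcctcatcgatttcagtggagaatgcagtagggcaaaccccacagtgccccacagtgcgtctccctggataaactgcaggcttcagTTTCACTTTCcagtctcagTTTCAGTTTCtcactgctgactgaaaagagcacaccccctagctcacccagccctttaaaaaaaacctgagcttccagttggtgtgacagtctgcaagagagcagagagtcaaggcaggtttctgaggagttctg
Isg20, chr7:78913174-78913473, plus strand, the first of 3 listed starts, no match in any of them: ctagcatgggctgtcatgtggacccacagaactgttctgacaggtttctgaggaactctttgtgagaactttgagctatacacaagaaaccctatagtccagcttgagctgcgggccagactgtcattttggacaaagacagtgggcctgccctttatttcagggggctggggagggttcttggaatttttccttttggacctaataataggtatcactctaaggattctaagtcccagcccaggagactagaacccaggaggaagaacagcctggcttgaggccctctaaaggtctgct
These 4 genes are described first below. Their promoters differ in the number of matches, from 0 in Isg20 to 3 in Isg15.

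Levels of the 39 genes in marrow were far from even. Counts per kilobase of exon, which allow genes to be compared, averaged over 16 libraries, were 199 CPM per kb for Rsad2, 137 for Isg20 and 64.3 for Isg15. Rsad2 encodes viperin, which makes a chain-terminating nucleotide from CTP. Isg20 encodes an RNA exonuclease, and Isg15 the ubiquitin-like modifier. The next were Samd9l (25.9), a growth-restraining antiviral factor, Cmpk2 (23.7), a mitochondrial nucleotide kinase, and Bst2 (23.3), the virion tether also called tetherin. At the other end stood Ifi208 (0.975), Mx2 (0.567) and Ifi44 (0.267), the 3 members under 1 CPM per kb. Rsad2 exceeded Mx1 (1.20 CPM per kb), the classical antiviral GTPase, 166-fold on this scale. Within the role classes the highest were Oas3 (22.4) among the oligoadenylate synthetases and PKR, Ifi209 (22.2) among the sensors, Dtx3l (17) in the PARP group, Trim30a (16.1) among the remaining members and Irf9 (14.0) among the transcription factors.

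The spread over libraries also differed by gene. Ddx58, which encodes the RNA sensor RIG-I, ranged from 50.3 to 64.4 CPM, a 1.28-fold span, the smallest of the 39. Oas2 ranged from 3.86 to 22.9 CPM, a 5.95-fold span, with the highest value in KO BMX-001 replicate 1 and 3.86 to 9.71 CPM in the other 15 libraries. Trim30a, a TRIM-family gene, stayed between 55.0 and 76.7 CPM. The low end was taken by KO libraries with 5-FU for most members. KO 5-FU replicate 2 was the lowest of 16 for 15 members and KO BMX-001 with 5-FU replicate 2 for 12. The same count over all genes was not made.

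**Figure D1:**
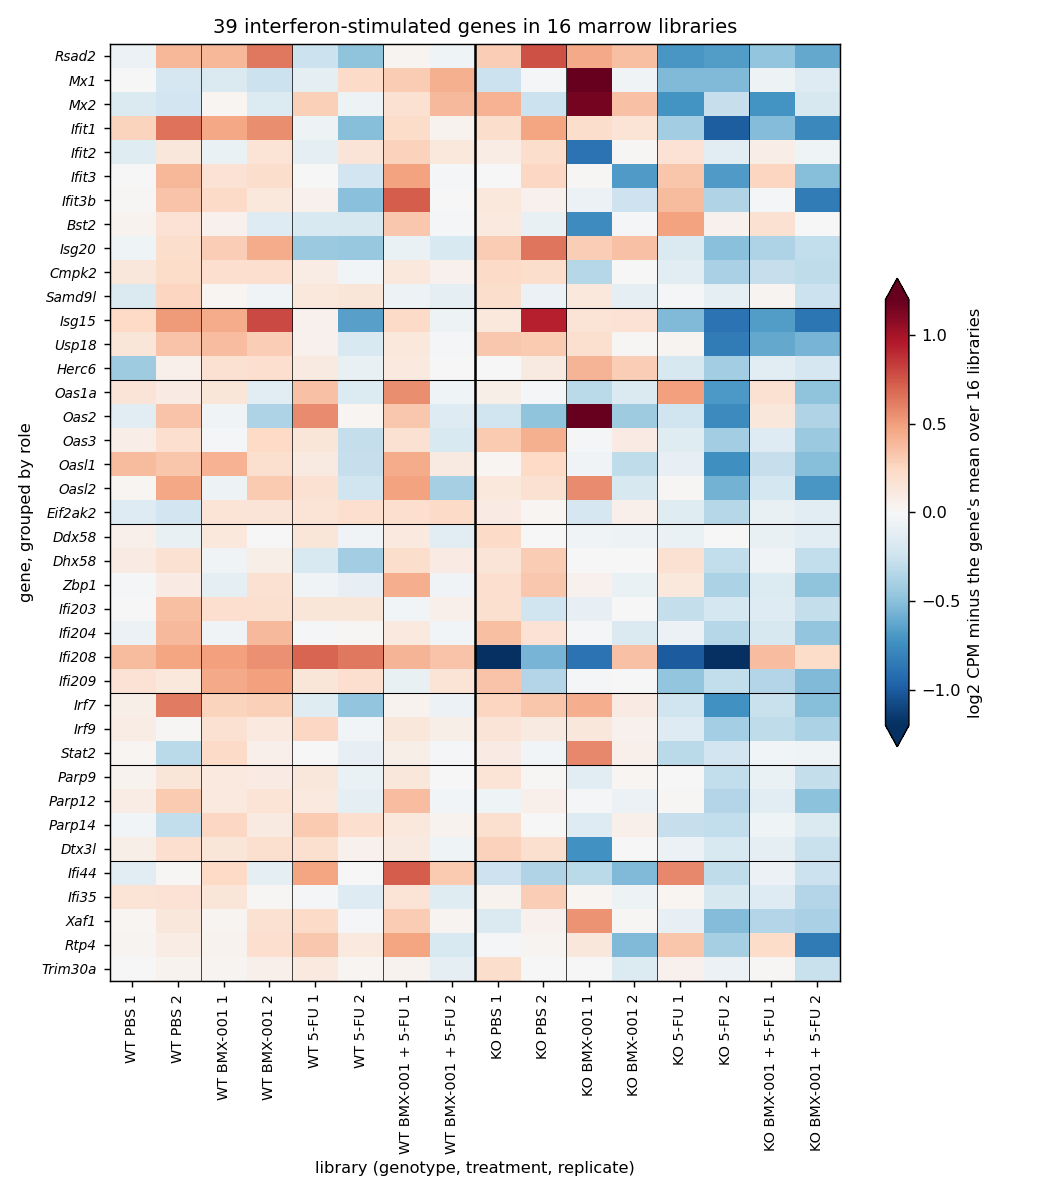
Colour shows log2 CPM of each member (rows, grouped by role) minus that gene's mean over 16 libraries (columns, grouped by genotype and treatment, colour scale limited to ±1.2). KO libraries with 5-FU are mostly blue, and KO BMX-001 replicate 1 is dark red for Mx1, Mx2 and Oas2.

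The main change was a fall of some interferon-stimulated transcripts in KO marrow that had received 5-FU. Both 5-FU groups (with and without BMX-001) were set against both groups without 5-FU, 4 libraries against 4. In KO, 7 of 39 members were lower at an adjusted p under 0.05 (17.9%) and none was higher, while 1.74% of all 19152 genes tested were called lower and 0.162% higher. The 7 were Rsad2, Isg20, Ifit1, Isg15, Usp18, Irf7 and Irf9. All but Irf9 also had negative values in WT, and edgeR called no member for the difference between genotypes, as given below. The 39 were chosen with earlier results of these data known, so their share called is not independent of those results. The median log2 fold change of the 39 was -0.30 against 0.01 over all genes, and 34 of 39 were negative, against 48.7% of all genes. Adjusted p-values here and below are Benjamini-Hochberg values over all genes from edgeR's quasi-likelihood test. Since whole marrow was sequenced, fewer cells of an expressing type and less RNA per cell cannot be told apart in any of these results.

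Rsad2 had the smallest p. In KO it stood at 1000.1 and 1389 CPM in PBS and 1119.6 and 1051 CPM with BMX-001. It stood at 503 and 514 CPM with 5-FU and 588 and 534 CPM with both drugs. All 4 libraries with 5-FU lay well below all 4 without it, and the 2 libraries with both drugs lay above the 2 with 5-FU alone. The log2 fold change was -1.09 ± 0.13 (SE, n = 4 against 4, adjusted p = 0.000767), a 2.13-fold fall. Cmpk2, its neighbour on chromosome 12, had values of 115 and 113 CPM in PBS, 77.2 and 97.6 CPM with BMX-001, 89.3 and 74.8 CPM with 5-FU and 80.8 and 79.2 CPM with both. The library at 77.2 CPM is KO BMX-001 replicate 1. Cmpk2 did not pass with 16 libraries (-0.30 ± 0.08, adjusted p = 0.105) and fell in the 15-library fit (-0.38 ± 0.07, adjusted p = 0.00246).

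Isg20 repeated the pattern of Rsad2. Its KO levels were 304 and 385 CPM in PBS, 304 and 315 CPM with BMX-001, 219 and 174 CPM with 5-FU and 191 and 201 CPM with both drugs. The groups did not overlap, with a log2 fold change of -0.73 ± 0.10 for Isg20 (SE, adjusted p = 0.00203). Ifit1, whose product binds the ends of foreign RNA, stood at 13.9 and 16.7 CPM in PBS and 13.9 and 13.5 CPM with BMX-001. With 5-FU it was at 9.04 and 6.08 CPM and with both drugs at 8.41 and 7.05 CPM. Again the 4 libraries with 5-FU were all lower, with a log2 fold change of -0.92 ± 0.15 (SE, adjusted p = 0.00583). Rsad2, Isg20 and Ifit1 kept their calls whichever of the 16 libraries was left out.

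The remaining effectors did not move as a block. Of the 11 effector genes (Rsad2, the Ifit and Mx genes, Bst2, Isg20, Cmpk2 and Samd9l) 3 fell and none rose, with a median of -0.30. Ifit2 had a value of 0.13 ± 0.16, and of -0.06 ± 0.11 without KO BMX-001 replicate 1, where it was low. Ifit3 (0.00 ± 0.25) and Ifit3b (-0.12 ± 0.24) lay within their spread. Ifit3 and Ifit3b are near-identical copies, and the split of reads between them is uncertain. Bst2, also low in that library, had a value of 0.35 ± 0.15 (adjusted p = 0.269) with it and 0.19 ± 0.12 without it. Mx1 and Mx2 were high there. Mx1 had a value of -0.67 ± 0.24 with the library and -0.23 ± 0.15 without it, and Mx2 values of -0.91 ± 0.24 (adjusted p = 0.0760) and -0.69 ± 0.22.

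Of the 3 genes of the ISG15 system, 2 fell. Isg15 stood in KO at 49.6 and 86.3 CPM in PBS, 50.8 and 51.1 CPM with BMX-001, 31.3 and 24.6 CPM with 5-FU and 28.5 and 24.9 CPM with both. KO PBS replicate 2 is the high value, and the other 3 libraries without 5-FU lay close together and still above every library with 5-FU. The log2 fold change was -1.11 ± 0.19 (SE, adjusted p = 0.00993). It lost its call without KO BMX-001 replicate 1 (adjusted p = 0.0724), without KO 5-FU replicate 2 and without KO BMX-001 with 5-FU replicate 2. Usp18, the protease that removes ISG15 and damps the receptor, was at 11.6 to 14.4 CPM without and 6.43 to 11.8 CPM with 5-FU (-0.68 ± 0.15, adjusted p = 0.0407). Its ranges overlapped at KO 5-FU replicate 1. The call of Usp18 was kept in 3 of 16 fits that each left out 1 library (KO 5-FU replicate 1 or either KO BMX-001 library) and lost in the other 13, with an adjusted p of up to 0.185. Herc6, the mouse ligase that attaches ISG15, ranged from 23.6 to 31.1 CPM without and 17.5 to 21.4 CPM with 5-FU, with no overlap. Its log2 fold change was -0.44 ± 0.10 (adjusted p = 0.0524) with 16 libraries and -0.41 ± 0.10 (adjusted p = 0.0360) with 15.

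Of the 3 transcription factor genes, 2 fell as well. Irf7, the amplifier of interferon production, was at 52.4 and 55.3 CPM in PBS, 59.3 and 46.9 CPM with BMX-001, 37.1 and 26.4 CPM with 5-FU and 36.5 and 30.8 CPM with both. The groups with and without 5-FU did not overlap (-0.71 ± 0.14, adjusted p = 0.0192). The call of Irf7 was lost without any 1 of 6 KO libraries (either PBS, BMX-001 replicate 1, 5-FU replicate 2, either with both drugs), with an adjusted p of up to 0.108. Irf9, the DNA-binding subunit of ISGF3, was at 83.2 and 80.7 CPM in PBS, 82.2 and 77.5 CPM with BMX-001, 67.1 and 56.4 CPM with 5-FU and 60.6 and 57.7 CPM with both. Its log2 fold change was -0.42 ± 0.08 (adjusted p = 0.0142). That call was lost without KO PBS replicate 1, KO 5-FU replicate 2 or either KO library with both drugs (adjusted p up to 0.0916). Stat2, the ISGF3 activator subunit, had a value of -0.35 ± 0.11 (adjusted p = 0.147), and of -0.21 ± 0.08 without KO BMX-001 replicate 1, where it was high. Its libraries with and without 5-FU did not overlap in either case.

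No sensor, PARP-group gene, oligoadenylate synthetase or remaining member passed with 16 libraries. Oas3, an oligoadenylate synthetase of the system that activates RNase L, came closest. Its KO values were 194 and 209 CPM in PBS, 153 and 166 CPM with BMX-001, 141 and 117 CPM with 5-FU and 139.7 and 114 CPM with both. The 4 libraries with 5-FU lay below the other 4 (-0.49 ± 0.12, adjusted p = 0.0619). The 6 synthetase and PKR genes had a median of -0.43 (-0.27 without KO BMX-001 replicate 1), the 7 sensors -0.21 and the 4 genes of the PARP group -0.20. Trim30a was at 76.7 and 66.2 CPM in PBS, 66.4 and 59.1 CPM with BMX-001, 68.6 and 63.1 CPM with 5-FU and 66.7 and 55.0 CPM with both. Its value of -0.08 ± 0.08 (adjusted p = 0.619) lay within its spread. Counted by libraries alone, 9 of 39 members (23.1%) were lower in every KO library with 5-FU than in every one without, against 4.43% of all genes. None was higher in that sense, against 3.49% of all genes.

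**Figure D2:**
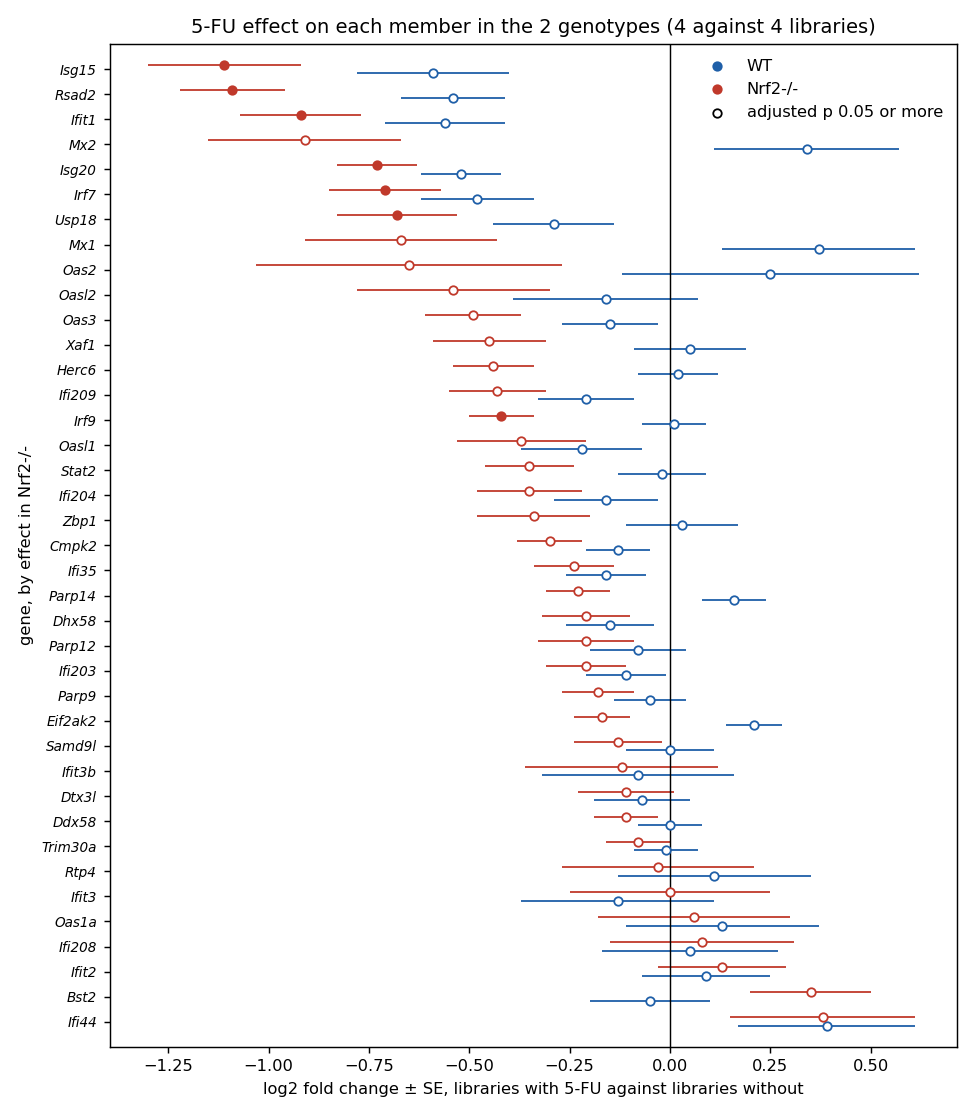
Each row is a member, ordered by its effect in KO. Points are log2 fold changes (libraries with 5-FU against libraries without, 4 against 4) with SE bars, blue for WT and red for KO (Nrf2-/-), filled where the adjusted p is under 0.05. The 7 filled points are all in KO and run from -1.11 to -0.42.

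The call count depends on which libraries are used, as does the share of all genes called. For fits with 1 library left out, that share is given only without KO BMX-001 replicate 1. In the 15-library fit 10 of 39 members were lower (25.6%, against 3.11% of 19694 genes) and none higher, with a median of -0.24 against 0.03. These 10 include 5 of the 7 named above. Isg15 and Irf7 dropped out, and Cmpk2, Dtx3l, Eif2ak2, Herc6 and Parp14 came in. Dtx3l, the ubiquitin ligase that pairs with PARP9, shows the effect of the deviating library. Its KO values were 116 and 110.0 CPM in PBS, 58.1 and 95.5 CPM with BMX-001, 91.2 and 84.8 CPM with 5-FU and 89.1 and 79.6 CPM with both, and the single low value is KO BMX-001 replicate 1. The 16-library value was -0.11 ± 0.12 and the 15-library value -0.27 ± 0.07 (adjusted p = 0.0346). Dtx3l overlaps Parp9 in the annotation, and reads in the overlap may not be separable. The number called was 3 without KO 5-FU replicate 2 or without KO BMX-001 with 5-FU replicate 2, 4 without KO PBS replicate 1 or KO BMX-001 with 5-FU replicate 1, and 18 without KO BMX-001 replicate 2, where only the deviating library is left for that group.

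Erythroid markers moved with the same libraries. The 10 markers summed to 75000 to 85200 CPM in KO without 5-FU and 51700 to 63400 CPM with it. Of the 10, 6 fell (among them Alas2 and Slc4a1), against 1.74% of all genes called lower, with a median of -0.58. In WT the sums were 57000 to 83100 CPM and 45100 to 62700 CPM, and none of the 10 passed. Summed monocyte markers in KO were 967 to 3370 CPM without 5-FU (2380 to 3370 CPM without the deviating library) and 1640 to 2050 CPM with it, and none of 10 passed. Plasmacytoid dendritic cell markers, from the cells that make most type I interferon, summed to 413 to 576 CPM and 434 to 507 CPM, and none of 10 passed. In WT the monocyte sums were 2210 to 2510 CPM without and 1710 to 2140 CPM with 5-FU, without overlap. The plasmacytoid sums there were 515 to 571 CPM and 452 to 491 CPM, also without overlap. Summed B lineage markers were at 1020 to 1260 CPM and 812 to 1010 CPM in WT, without overlap. In KO they overlapped (637 to 931 and 609 to 870 CPM). The neutrophil, granulocyte precursor, macrophage and T and NK sums overlapped in WT. Summed T and NK cell markers did not overlap in KO, at 95.5 to 108 CPM without and 117 to 132 CPM with 5-FU, and none of 10 passed. The 6 granulocyte precursor markers had a median of 0.39 with none negative and none passing, and of 0.21 without the deviating library, where 1 rose, Ms4a3. The 10 macrophage markers had a median of 0.22, and of -0.01 without that library. How often the sums of other gene lists do not overlap was not counted, so these sums cannot be set against a background. The part of these shifts in the fall of the members was not tested. No marker in any of these lists was at 0 in all libraries.

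**Figure D3:**
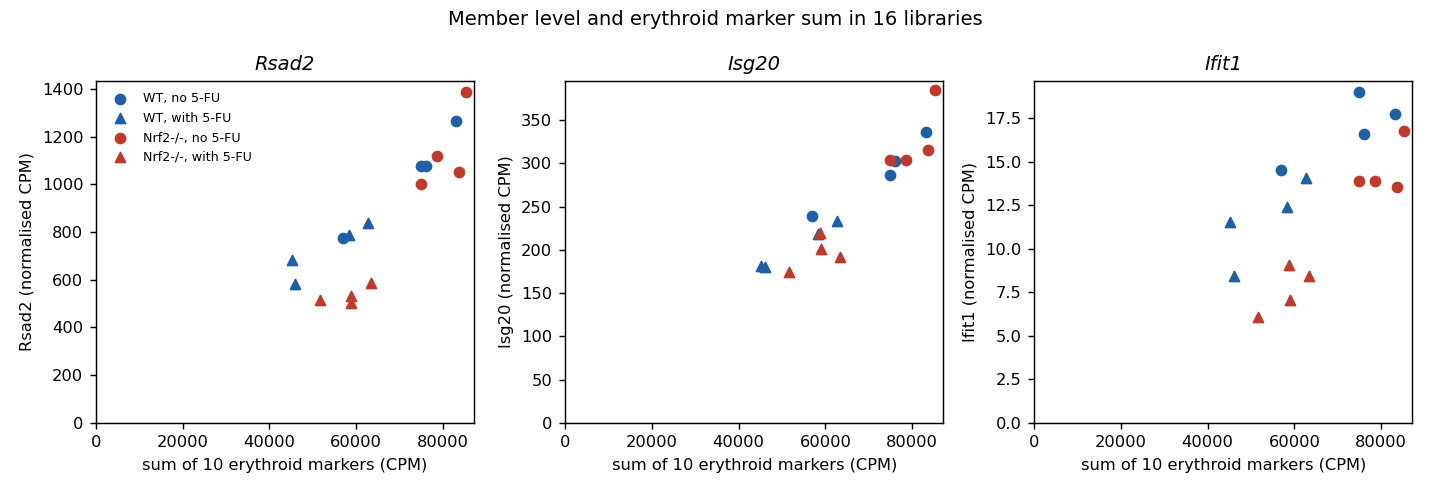
Each point is 1 library, with the sum of 10 erythroid markers on the x axis (CPM) and the CPM of Rsad2, Isg20 or Ifit1 on the y axis, circles without and triangles with 5-FU, WT blue and KO red. Libraries of either genotype with a low erythroid sum have low Rsad2 and Isg20. KO libraries with 5-FU lie below WT libraries of a like sum for Rsad2 and Ifit1. Isg20 is not separated in this way, at 219 CPM in KO 5-FU replicate 1 and 218 CPM in WT BMX-001 with 5-FU replicate 2. The relation between marker sum and member level was not tested.

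With 5-FU alone against PBS in KO, 2 libraries against 2, Rsad2 (-1.23 ± 0.18, adjusted p = 0.0133) and Isg20 (-0.81 ± 0.14, adjusted p = 0.0280) fell. That is 2 of 39 (5.13%) against 0.444% of genes called lower, with a median of -0.31 against 0.02 over all genes. Libraries did not overlap for 23 members on the low side (59.0%, against 21.4% of all genes) and for none on the high side (21.6% of all genes). The 15-library fit called 8 lower (20.5%, against 2.40%), adding Ifit1, Irf9, Cmpk2, Dtx3l, Eif2ak2 and Parp14. Rsad2 lost its call without KO PBS replicate 2 or either KO 5-FU library (adjusted p up to 0.201), and Isg20 kept its call in 7 of 16 such fits (adjusted p up to 0.282). The calls added by the 15-library fit were lost when any library outside KO BMX-001 was left out instead. This comparison shares its 4 libraries with the pooled one above and is not a separate observation.

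In WT marrow 6 of the 7 genes called in KO had negative values after 5-FU, Irf9 did not, and edgeR called no member with 16 libraries. Pooled over BMX-001, edgeR called 0 of 39 (0.0574% of all genes in either direction), with 6 members at an unadjusted p under 0.05 (15.4%, against 9.54% of genes), while DESeq2 called 3. The median was -0.05 against 0.00 over all genes. For the DESeq2 counts here and below, the share of all genes called is not given. Rsad2 stood at 776 and 1077 CPM in PBS, 1079 and 1268 CPM with BMX-001, 681 and 583 CPM with 5-FU and 836 and 786 CPM with both. WT PBS replicate 1 lay among the libraries with 5-FU, so the groups overlapped (-0.54 ± 0.13, adjusted p = 0.172). Isg20 was at 239 and 287 CPM in PBS, 303 and 336 CPM with BMX-001, 182 and 181 CPM with 5-FU and 233 and 218 CPM with both, without overlap (-0.52 ± 0.10, adjusted p = 0.115). Among edgeR fits with a library left out, Rsad2 and Isg20 were called only where that library was from KO BMX-001. In the 15-library fit Isg20 (-0.52 ± 0.09, adjusted p = 0.0107) and Rsad2 (-0.54 ± 0.12, adjusted p = 0.0463) fell, 2 of 39 (5.13%) against 1.38% of genes called lower.

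Ifit1, Isg15 and Irf7 had the same sign in WT. Ifit1 was at 14.5 and 19.0 CPM in PBS, 16.6 and 17.8 CPM with BMX-001, 11.6 and 8.45 CPM with 5-FU and 14.1 and 12.4 CPM with both (-0.56 ± 0.15, adjusted p = 0.216). Isg15 was at 53.6 and 64.7 CPM, 61.8 and 78.7 CPM, 46.9 and 28.9 CPM and 53.2 and 43.3 CPM in the same order of groups (-0.59 ± 0.19, adjusted p = 0.322). Irf7 was at 46.0 and 67.6 CPM, 52.7 and 53.5 CPM, 39.5 and 31.4 CPM and 45.1 and 41.8 CPM (-0.48 ± 0.14, adjusted p = 0.263). For each of these genes the 4 libraries with 5-FU lay below the 4 without, by narrow margins. In all 6 members did so in WT (15.4%, against 4.49% of all genes), namely Cmpk2, Ifit1, Irf7, Isg15, Isg20 and Usp18. Cmpk2 was at 108 and 114 CPM, 112 and 112 CPM, 104 and 95.6 CPM and 107 and 101 CPM, and Usp18 at 12.8 to 14.8 CPM without and 10.1 to 12.6 CPM with 5-FU. Irf9 stood in WT at 79.5 and 75.5 CPM in PBS, 84.8 and 81.5 CPM with BMX-001, 88.9 and 73.2 CPM with 5-FU and 82.2 and 78.6 CPM with both (0.01 ± 0.08, adjusted p = 0.983).

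Eif2ak2 and Parp14 lay the other way in WT. Eif2ak2 encodes the kinase PKR, which halts translation when it binds double-stranded RNA, and Parp14 an ADP-ribosyltransferase. Eif2ak2 was at 51.3 and 48.6 CPM in WT PBS, 64.1 and 63.4 CPM with BMX-001, 63.8 and 65.4 CPM with 5-FU and 65.4 and 67.0 CPM with both. The 2 PBS libraries are the low ones and all 6 treated libraries lie together above them. Parp14 was at 93.6 and 78.1 CPM in PBS, 114 and 103 CPM with BMX-001, 119.5 and 111 CPM with 5-FU and 105 and 98.7 CPM with both, again with the PBS libraries lowest.

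With 5-FU alone against PBS in WT, edgeR called 0 of 39 with 16 libraries (0.00522% of genes), with 8 members at an unadjusted p under 0.05 (20.5%, against 14.4%), and DESeq2 called 4. Parp14 (0.42 ± 0.12, adjusted p = 0.147) and Eif2ak2 (0.37 ± 0.10, adjusted p = 0.147) had the smallest p among members with a positive value. In the 15-library fit both rose (adjusted p = 0.0170 and 0.0131), while Isg20 (-0.54 ± 0.13, adjusted p = 0.0236) and Ifit1 (-0.75 ± 0.20, adjusted p = 0.0387) fell. That is 2 of 39 higher (5.13%, against 3.13% of genes) and 2 lower (5.13%, against 3.74%), shares near the background. This contrast does not use the library left out, and these calls were lost when any library outside KO BMX-001 was left out instead. The lower side without overlap held 13 members (33.3%, against 27.5% of genes) and the higher side 5 (12.8%, against 26.7%).

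In KO these 2 genes had the opposite sign. Eif2ak2 was at 61.2 and 57.9 CPM in PBS, 49.7 and 59.7 CPM with BMX-001, 51.6 and 44.9 CPM with 5-FU and 53.5 and 52.4 CPM with both. Parp14 was at 109 and 95.9 CPM, 86.1 and 99.95 CPM, 79.2 and 78.3 CPM and 92.3 and 84.8 CPM. For both the KO PBS libraries lay above the KO 5-FU libraries, where in WT the PBS libraries lay below. With 5-FU alone the KO value was -0.38 ± 0.12 for Parp14 (adjusted p = 0.259; 0.0394 with 15 libraries). That of Eif2ak2 was -0.30 in both fits, with an adjusted p of 0.339 (0.0480 with 15 libraries).

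The difference between the KO and the WT response to 5-FU was tested as an interaction, and no member passed in edgeR with 16 or with 15 libraries. For 5-FU alone edgeR called 0 of 39 (0% of genes), with 5 members at an unadjusted p under 0.05 (12.8%, against 5.69%), and DESeq2 called 2, Parp14 and Eif2ak2. Parp14 had a difference of -0.81 ± 0.17 on the log2 scale (KO effect minus WT effect, adjusted p = 0.846), Eif2ak2 one of -0.67 ± 0.15 (adjusted p = 0.846) and Irf9 one of -0.47 ± 0.16 (adjusted p = 0.846). In the 15-library fit the first 2 had an adjusted p of 0.154 each. Pooled over BMX-001, edgeR called 0 of 39 (0% of genes), with 8 members at an unadjusted p under 0.05 (20.5%, against 6.79%), and DESeq2 called 0. Without the filter on low counts 3 were called, and without KO BMX-001 replicate 2 the count was 10. The smallest p-values were those of Irf9 (-0.43 ± 0.11), Mx2 (-1.25 ± 0.33), Eif2ak2 (-0.39 ± 0.10) and Parp14 (-0.39 ± 0.12), each with adjusted p = 0.689. Rsad2 had a difference of -0.55 ± 0.18 and the same adjusted p. The median of the 39 differences was -0.18 against 0.01 over all genes, and 35 of 39 were negative, against 49.0% of all genes.

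**Figure D4:**
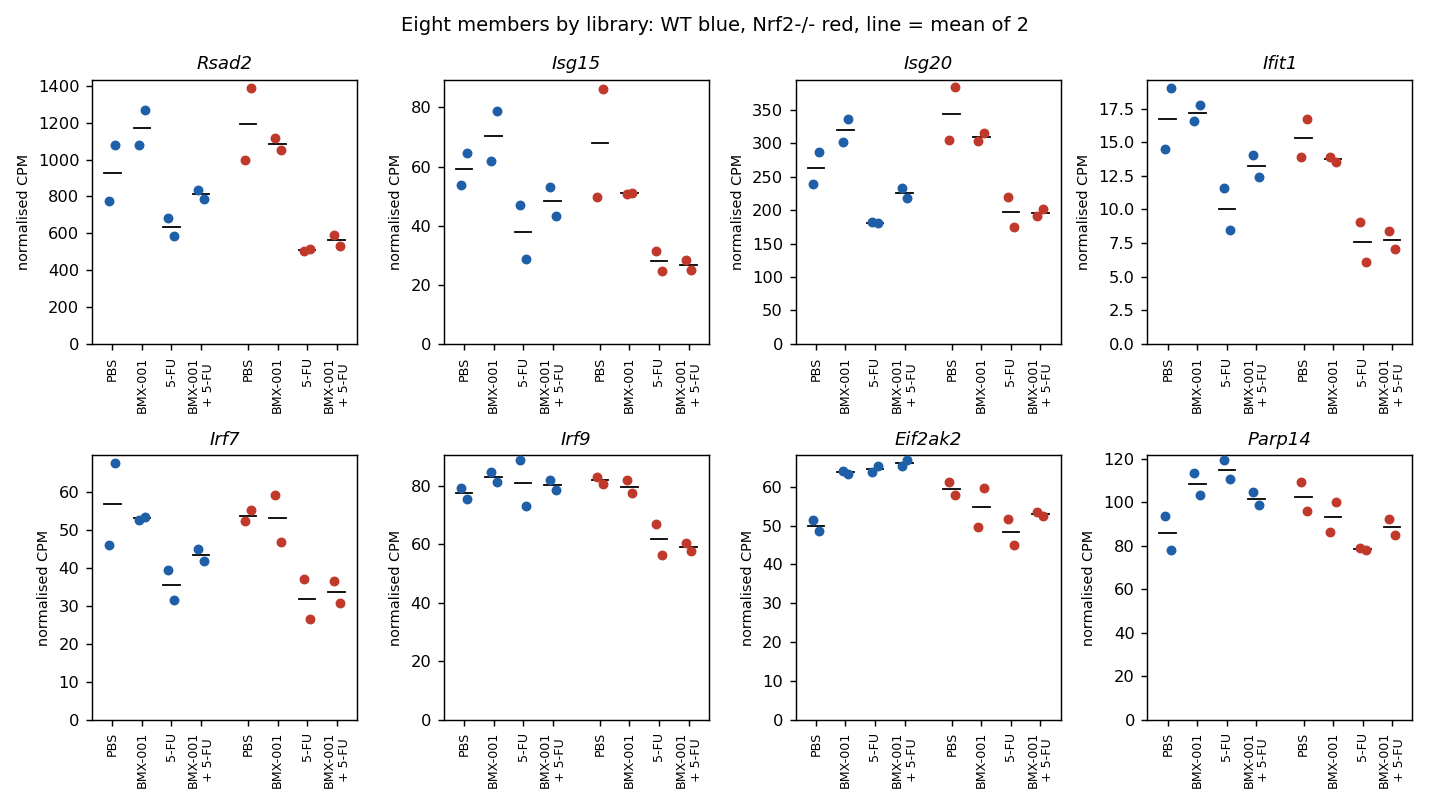
Normalised CPM (y axis from 0) of 8 members in the 16 libraries, WT blue and KO (Nrf2-/-) red, with a black line at the mean of the 2 libraries of a group. Rsad2, Isg15, Isg20, Ifit1 and Irf7 have lower group means with 5-FU than with PBS in both genotypes, and Irf9 in KO. The KO calls of these genes come from the pooled comparison of libraries with and without 5-FU. For Eif2ak2 and Parp14 the WT PBS libraries are the lowest of their genotype.

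Between the genotypes over all treatments, the 1 member called was Ifi208, a HIN-200 family gene of the DNA sensor group. It was lower in KO by 0.95 ± 0.16 on the log2 scale (adjusted p = 0.0330), 1 of 39 (2.56%) against 0.115% of genes called lower. The median of the members was -0.18 against 0.00, and 35 of 39 were negative, against 49.2% of all genes. In WT Ifi208 was at 6.05 and 6.44 CPM in PBS, 6.55 and 6.79 CPM with BMX-001, 7.56 and 7.22 CPM with 5-FU and 6.17 and 5.91 CPM with both. In KO it was at 2.00 and 3.17 CPM in PBS, 2.51 and 5.92 CPM with BMX-001, 2.33 and 1.95 CPM with 5-FU and 6.01 and 5.40 CPM with both. The 8 WT libraries are close to each other. The KO libraries are not, with 5 between 1.95 and 3.17 CPM and 3 (BMX-001 replicate 2 and both libraries with the 2 drugs) between 5.40 and 6.01 CPM, next to the lowest WT value of 5.91 CPM. The call was kept without 3 of the 16 libraries and lost without each of the others (largest adjusted p 0.132), and in the 15-library fit the value was -0.83 ± 0.10 (adjusted p = 0.000455).

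The split inside KO also shows in single contrasts. In the 15-library fit Ifi208 was lower in KO than in WT with PBS (-1.27 ± 0.20, adjusted p = 0.0207), the 1 of 39 called (2.56%, against 0.0355% of genes called lower). With 5-FU it was lower by 1.78 ± 0.20 (adjusted p = 0.000540). Within KO it was higher with both drugs than with 5-FU alone by 1.41 ± 0.20 (adjusted p = 0.0394), the 1 gene called in that contrast (0.00508%). With 16 libraries none of these 3 passed (adjusted p = 0.706, 0.252 and 1.00). These contrasts do not use the library left out, so their values stayed the same and only the shared estimate of spread changed. The calls were lost when any library outside KO BMX-001 was left out instead. The 2 libraries of KO BMX-001 lay on either side, so the treatment labels do not sort all KO values. The low one, at 2.51 CPM, is the deviating replicate 1. Among the other KO libraries, those with BMX-001 were at 5.40 to 6.01 CPM and those without it at 1.95 to 3.17 CPM. These ranges leave out the KO library that breaks the split. In WT with 5-FU the order was the reverse, at 5.91 and 6.17 CPM with BMX-001 and 7.22 and 7.56 CPM without it. Ifi208 is also among the members under 1 CPM per kb.

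Ifi209, the gene next to Ifi208 on chromosome 1, did not share that split. It was at 87.1 and 84.1 CPM in WT PBS, 106 and 108 CPM with BMX-001, 85.1 and 88.5 CPM with 5-FU and 72.4 and 86.5 CPM with both. In KO it was at 97.8 and 60.4 CPM, 76.3 and 77.5 CPM, 55.7 and 62.7 CPM and 60.3 and 53.3 CPM. KO libraries lay lower on the whole with overlap (-0.41 ± 0.09, adjusted p = 0.0843). Ifi203 had a value of -0.27 ± 0.07 (adjusted p = 0.142). The HIN-200 genes are close relatives, and reads shared among them are uncertain.

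**Figure D5:**
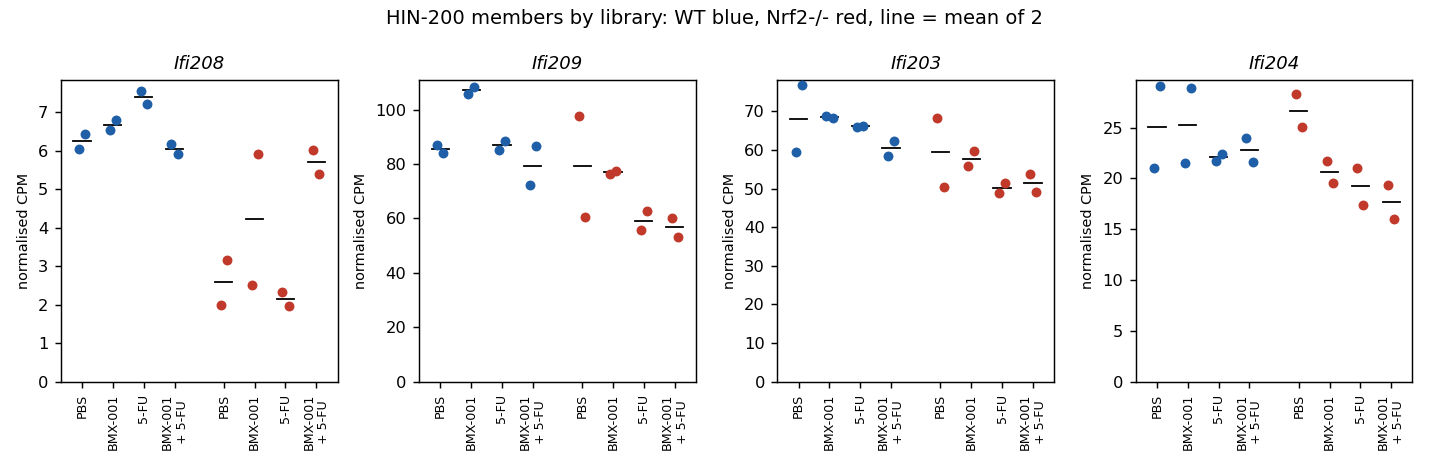
Normalised CPM (y axis from 0) of the 4 HIN-200 members in the 16 libraries, WT blue and KO (Nrf2-/-) red, with a black line at the mean of the 2 libraries of a group. Ifi208 is at 5.91 to 7.56 CPM in WT and, in KO, at 1.95 to 3.17 CPM in 5 libraries and 5.40 to 6.01 CPM in 3.

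The 15-library fit called 4 of 39 members lower in KO over all treatments (10.3%, against 0.767% of genes). Beside Ifi208 these were Cmpk2 (-0.21 ± 0.04, adjusted p = 0.0304), Oasl1 (-0.45 ± 0.11, adjusted p = 0.0437) and Irf9 (-0.21 ± 0.05, adjusted p = 0.0474). Oasl1 encodes an oligoadenylate synthetase-like protein that restrains Irf7 translation. It was at 11.9 and 11.5 CPM in WT PBS, 12.2 and 10.4 CPM with BMX-001, 9.87 and 7.52 CPM with 5-FU and 12.4 and 9.85 CPM with both. In KO it was at 9.26 and 10.8 CPM, 8.90 and 7.40 CPM, 8.55 and 5.49 CPM and 7.55 and 6.42 CPM, lower on the whole with overlap.

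In PBS alone edgeR called 0 of 39 between the genotypes with 16 libraries (0.0261% of genes), with 4 members at an unadjusted p under 0.05 (10.3%, against 4.44%), and DESeq2 called 0. The sign was mixed, with 18 of 39 negative (46.2%, against 52.6% of all genes). Rsad2 (0.37 ± 0.18) and Isg20 (0.39 ± 0.14) had positive values, each with adjusted p = 1.00. After 5-FU alone edgeR called 0 of 39 (0.0157% of genes), with 8 at an unadjusted p under 0.05 (20.5%, against 6.80%), and DESeq2 called 2. There 33 of 39 values were negative (84.6%, against 49.3% of all genes). Among edgeR fits with a library left out, members were called after 5-FU only where that library was from KO BMX-001. The 15-library fit called 3 lower in KO after 5-FU (7.69%, against 0.117% of genes), Ifi208, Parp14 (-0.55 ± 0.10, adjusted p = 0.0310) and Eif2ak2 (-0.42 ± 0.08, adjusted p = 0.0429).

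With BMX-001 alone against PBS, edgeR called no member in either genotype with 16 or with 15 libraries. In WT edgeR called 0 of 39 (0% of genes), with 3 at an unadjusted p under 0.05 (7.69%, against 5.10%), and DESeq2 called 0. These 3 had positive values, 0.35 ± 0.10 for Eif2ak2, 0.34 ± 0.12 for Parp14 and 0.35 ± 0.15 for Herc6, each with adjusted p = 0.961. In KO edgeR called 0 of 39 (0.00522% of genes) with 6 at an unadjusted p under 0.05 (15.4%, against 30.6%), DESeq2 called 3, edgeR without the filter on low counts 5, and edgeR without KO BMX-001 replicate 2 called 10. That contrast rests on the deviating library. Without it edgeR called 0 with 4 at an unadjusted p under 0.05 (10.3%, against 9.0%).

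With BMX-001 added to 5-FU, edgeR called no member with 16 libraries in either genotype. In WT edgeR called 0 of 39 (0% of genes) with 2 at an unadjusted p under 0.05 (5.13%, against 3.93%), and DESeq2 called 0. Rsad2 had a value of 0.36 ± 0.18 and Isg20 one of 0.32 ± 0.14, each with adjusted p = 0.998. For each gene both libraries with the 2 drugs lay above both with 5-FU alone. For Isg20 they lay below both PBS libraries, and for Rsad2 between them. In KO edgeR called 0 of 39 (0% of genes) with 1 at an unadjusted p under 0.05 (2.56%, against 2.61%), Ifi208 as given above, and DESeq2 called 0.

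KO BMX-001 replicate 1 held extreme values for 10 of the 39 members. How often this library was extreme over all genes was not counted, so the 10 cannot be set against a background. It was above all other libraries for 7. Oas2 was at 22.9 CPM against 3.86 to 9.71 CPM elsewhere, Mx1 at 11.3 against 2.97 to 5.75 CPM, Mx2 at 4.32 against 1.18 to 2.60 CPM and Stat2 at 62.8 against 33.7 to 49.5 CPM. Herc6, Oasl2 and Xaf1 were the other 3. It was below all others for Ifit2 (11.9 against 20.0 to 26.7 CPM), Bst2 (12.3 against 18.1 to 28.9 CPM) and Dtx3l (58.1 against 79.6 to 116 CPM). Rsad2, Isg15 and Isg20 in this library lay within the range of the others, so members did not deviate in one direction. Its summed macrophage markers were 385 CPM, against 719 CPM or more in other libraries, and the part of this in its member levels was not tested.

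Few genes upstream of the members passed the test. Of 15 type I and type III interferon genes, 11 had 0 counts in all 16 libraries and the other 4 (Ifna2, Ifna6, Ifnb1 and Ifnk) had 5 counts together, so none could be tested. Interferon transcripts were thus too few at this depth to compare groups. Of 9 receptor and kinase genes tested for 5-FU in KO, 1 fell, where 1.74% of all genes were called lower. It was Ifnar1, a subunit of the type I receptor (-0.27 ± 0.06, adjusted p = 0.0353). It was at 95.8 to 111 CPM without and 82.0 to 87.1 CPM with 5-FU, with no overlap. Ifnar2 had a value of -0.17 ± 0.07 (adjusted p = 0.258), Jak1 of -0.08 ± 0.08 (adjusted p = 0.590) and Ifngr1, of the interferon-gamma receptor, of 0.02 ± 0.07 (adjusted p = 0.906).

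Among 7 further transcription factor genes 1 fell in KO, where 1.74% of all genes were called lower. It was Irf5, a factor downstream of Toll-like receptors (-0.33 ± 0.07, adjusted p = 0.0391), from 63.6 to 78.2 CPM without to 52.8 to 59.6 CPM with 5-FU. Irf8, the monocyte and dendritic cell factor (0.05 ± 0.10, adjusted p = 0.795), and Stat3 (-0.11 ± 0.07, adjusted p = 0.425) were the most abundant of the list. None of 14 nucleic acid sensing genes passed, with Unc93b1, which carries Toll-like receptors to endosomes, at -0.20 ± 0.08 and Trim25 at -0.26 ± 0.07. None of 9 tested genes that restrain the pathway passed, with Samhd1, a nucleotide hydrolase, at -0.27 ± 0.08 and Irf2bp2 at -0.03 ± 0.10.

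A list of other interferon-stimulated genes outside the 39 was read in the same way. Of 41 tested, 1 fell in KO with 5-FU (2.44%), near the 1.74% of all genes called lower. It was Tdrd7, a tudor-domain gene (-0.41 ± 0.08, adjusted p = 0.0154), from 31.8 to 42.2 CPM without to 26.1 to 29.1 CPM with 5-FU. The median of the 41 was -0.12, and 29 of them were negative, against 48.7% of all genes. Ly6e, an antiviral surface protein, was at 0.01 ± 0.18 and Rnf213 at -0.28 ± 0.12. None of 22 genes linked to interferon-gamma passed, and their median was 0.04. Tap1 (-0.10 ± 0.11) and Psmb8 (0.08 ± 0.11), of antigen processing, were the most abundant of these. In WT no gene of any of these lists passed with 16 libraries. The difference between the 39 and the other lists was not tested.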

How the data were processed

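RNA from whole bone marrow was sequenced in 16 libraries (NovaSeq X). The values deposited by the authors are raw counts per gene, and 0 sample columns were left unused. Per the submitters' processing notes the build was GRCm39 and the tools were featureCounts and Salmon 1.4.0, with Trim Galore 0.6.4, FastQC 0.12.1 and DESeq2 1.38.3 under R 4.3.0, in no stated order or role. Strand setting, annotation release and aligner are not stated in the labels or headers, so reads of overlapping or near-identical genes cannot be separated. Symbols and exon lengths came from a GRCm38 annotation joined by gene ID, and all 39 members and all 235 list symbols matched.

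The test was the robust quasi-likelihood test of edgeR 4.0.16 (R 4.3.3) on 8 group means with 8 residual degrees of freedom, after filterByExpr and TMM scaling. Called means a Benjamini-Hochberg adjusted p under 0.05 over all 19152 genes tested (19694 without KO BMX-001 replicate 1). The 13 comparisons were 5-FU against PBS and all libraries with 5-FU against all without (each in WT, in KO, and as their difference), KO against WT over all treatments, in PBS and in 5-FU, BMX-001 against PBS, and both drugs against 5-FU. The 5-FU comparisons of a genotype share libraries. Each SE was worked back from the test, as the absolute log2 fold change divided by the square root of the F statistic. Alternatives were RLE scaling, DESeq2 1.42.0, no filter on low counts, a replicate block and each library left out. At library totals of 27305707 to 39909188, counting error is small beside the spread between libraries for abundant members. That need not hold for the lowest, with summed counts down to 946 over the 16 libraries.

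Members and lists were chosen with earlier results of these data known. Values are given per library for the 12 members of smallest p among the 14 called in either fit, for Rsad2 and Parp14, and for the member of highest level per kilobase in each role class, and others by range. Of the other pathway genes, those called and the 2 most abundant of a list are named.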

Additional observations from a re-analysis of the deposited data

Results flagged for a closer look

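In sets of 4 libraries (a genotype with or without 5-FU), a library was singled out where its gap to the nearest other value exceeded Dixon's critical share of the set's range at the 95% level. Of 156 such sets, 6 were singled out, and chance gives about 1 in 20. All 6 were high values.

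KO PBS replicate 2 had 3 of the 6. Isg15 was at 86.3 CPM there against 49.6 to 51.1 CPM in the other KO libraries without 5-FU, Isg20 at 385 against 304 to 315 CPM, and Ifit1 at 16.7 against 13.5 to 13.9 CPM. These are 3 of the genes that fell with 5-FU in KO, and each was also lower in every library with 5-FU than in the other 3 without it. KO BMX-001 replicate 1 had 2, with Oas2 at 22.9 CPM against 4.68 to 5.54 CPM and Mx1 at 11.3 against 3.57 to 4.22 CPM. In WT BMX-001 with 5-FU replicate 1, Zbp1, a sensor of Z-form nucleic acids, was at 14.2 CPM against 9.80 to 10.2 CPM in the other WT libraries with 5-FU.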

How the results depend on the processing

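With RLE scaling every count of called members stayed within 1.5 times, at 8 for pooled 5-FU in KO. DESeq2 called 4 members for 5-FU in WT, 8 in KO and 2 for their difference, 3 for pooled 5-FU in WT and 13 in KO, 6 for KO against WT over all treatments and 2 in 5-FU, and 3 for BMX-001 in KO. Without the filter on low counts the counts were 5 for 5-FU in WT, 6 in KO and 1 for their difference. For pooled 5-FU they were 5 in WT, 15 in KO and 3 for their difference. They were 7 for KO against WT over all treatments, 1 in PBS and 3 in 5-FU, 5 for BMX-001 in KO and 1 for both drugs against 5-FU in KO. The share of all genes called under these settings is not given, so the counts cannot be set against a background. The cause of these differences was not tested.

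Leaving out 1 library at a time gave 0 to 4 calls for 5-FU in WT, 0 to 8 in KO, and 0 to 2 for pooled 5-FU in WT. Pooled 5-FU in KO ran from 3 (without KO 5-FU replicate 2 or KO BMX-001 with 5-FU replicate 2) to 18 (without KO BMX-001 replicate 2), and its difference from WT from 0 to 10. KO against WT ran from 0 to 13 over all treatments, 0 to 1 in PBS and 0 to 3 in 5-FU. BMX-001 in KO ran from 0 to 10 and both drugs against 5-FU in KO from 0 to 1. The counts of 10, 13 and 18 come without KO BMX-001 replicate 2, where the deviating library stands for its group by itself and is assumed to vary like the other groups. There Dtx3l turned to 0.10 for pooled 5-FU in KO, from -0.11 with 16 libraries and -0.27 without KO BMX-001 replicate 1. The share of all genes called also changes with the library left out. It is not given for most of these fits, so the ranges cannot be read as a result about the members. For BMX-001 in WT, for both drugs against 5-FU in WT and for the difference between genotypes in the effect of 5-FU alone, each left-out library gave 0.

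Replicate numbers did not pair the libraries. Over 28 pairs of groups the correlation of same-numbered deviations was -0.39 to 0.20, and 6 exceeded 0.1. With the replicate block 7 members were called for pooled 5-FU in KO, 2 for 5-FU in KO, 1 for KO against WT and 0 elsewhere.

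With 2 libraries a group, spread between libraries limits these tests more than depth does for abundant members. Members under 1 CPM per kb, and interferon genes with 5 counts in all, are read least firmly.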
